A study of Mus musculus with 9 samples.

Results

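The rows described here are 115 of the 53172 gene names in a bone marrow (BM) RNA-seq count table, those whose level fell in order from healthy mice (Health) to mice given a BM transplant (BMT) and again to mice given costal cartilage-derived stem cells (CDSCs). The level is CPM, a row's count divided by all counts of its mouse and scaled to a total of 1000000. Rows were chosen by their CPM in the 9 mice. A row was taken when its mean in Health was at least 1 CPM, when every Health mouse was above every BMT mouse and every BMT mouse above every CDSCs mouse, when the BMT mean was under 80% of the Health mean and the CDSCs mean under 80% of the BMT mean, and when the CDSCs mean was at most 50% of the Health mean. Of 11808 rows with at least 1 CPM in Health, 117 met these conditions, and Fcer2a and mt-Rnr2 were then set aside by name. Since all 9 mice and all 3 comparisons chose the rows, their order, the size of their fall and the calls they received in those comparisons are given as a description and support nothing.

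Each group held 3 mice. BMT and CDSCs recipients had both received 9.5 Gy of whole-body irradiation, a lethal dose, and then 500000 cells, either BM cells or cells freed by enzymes from the rib cartilage of newborn mice, and the cells of their marrow were collected 2 weeks later. Health mice were of the same age (the recipients were 16 weeks old by the study's methods) and had neither treatment, so irradiation and transplantation cannot be told apart in the step from Health to BMT. The cartilage isolate also held a few blood-forming stem and progenitor cells by the study's account, and no separation of donor from host cells is described for these samples. The labels describe all cells of the marrow, whereas the methods describe CD45+ and CD45- fractions whose data were merged. Totals ran from 8741155 to 10181289 counts per mouse, so that 3 counts corresponded to 0.295 to 0.343 CPM. P-values cover only the spread between these 9 mice. In bulk RNA, fewer cells of a type and less RNA per cell cannot be told apart.

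The names on the rows could not be taken at face value. Of 136 names that any marrow is known to use heavily (ribosomal proteins, housekeeping genes and blood-cell products, listed after the counts were seen), 82 had a mean under 10 counts. Hbb-bs (the main adult beta globin), Alas2 (the first enzyme of heme synthesis in red cells), S100a8 and Camp (neutrophil proteins), Pf4 (platelets), Vpreb1 (B cells) and Adgre1 (macrophages) were at 0 in all 9 mice, as were Sp7 and Sox9 of bone and cartilage, and Actb (beta-actin) had 20 to 37 counts. The row with the highest mean, 350395 counts, carried the name of an odorant receptor, Olfr648, which lies 351 kb from Hbb-bs on chromosome 7 (GRCm38). A scan of positions up to 1000 kb to either side of the same names was made on 20 chromosomes, reading the highest mean count of a row at each place as log2(count + 1). On the 4 chromosomes with at least 10 of the names, the average at the names' own positions was 3.26 on chromosome 7, 2.91 on 9, 4.33 on 10 and 4.94 on 11, near the medians over all shifts of 3.45, 3.78, 3.83 and 4.25. It was highest at shifts of 350 kb (7.04), 170 to 176 kb (6.33), 164 kb (10.01) and 110 kb (9.21) in turn. The shift is the best of many tried. The other chromosomes held 2 to 8 of the names each and differed among themselves. Chromosome 12, with 4 names, was highest with no shift (10.03), and on chromosomes 4 (8 names) and 15 (5 names) the own positions stood at 6.42 and 7.11, above the medians of 3.21 and 3.95 and below the highest values of 7.46 and 8.57. Member names are therefore used here as the labels of rows, what is said of a gene is background on the gene so named, and whether its own transcript was counted was not tested row by row.

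Adult marrow makes blood cells in a niche of stromal, vascular and bone-forming cells. Whole-body irradiation empties the marrow of dividing blood-forming cells and damages that niche, and transplanted stem and progenitor cells refill it over the following weeks, with short-lived myeloid cells returning early and lymphocytes later.

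The fall was stepwise by choice and uneven in size. BMT means lay at 13.6% to 79.9% of the Health mean (median 54.9%), and CDSCs means at 1.03% to 49.9% (median 24.1%). On the log2 scale of group means the median first step was -0.86 and the median second step -1.14. The first step was the larger in 42 members and the second in 73. Read mouse by mouse, the median member stood at 92.3%, 93.3% and 114% of its Health mean in the Health mice, at 59.4%, 52.3% and 51.7% in the BMT mice, and at 23.7%, 23.6% and 24.5% in the CDSCs mice. Health mouse 3 was the highest of its group in 74 members (64.3%, against 55.5% of all rows with at least 1 CPM), and BMT mouse 1 in 54 (47.0%, against 29.1%). In Health the median coefficient of variation was 19.2% over members and 17.8% over all rows with at least 1 CPM. It was 17.2% against 14.8% in BMT and 32.9% against 22.7% in CDSCs. The rows were not matched for level, and the choice set the members' CDSCs levels low. The part of counting error in the wider spread was not tested.

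**Figure D1:**
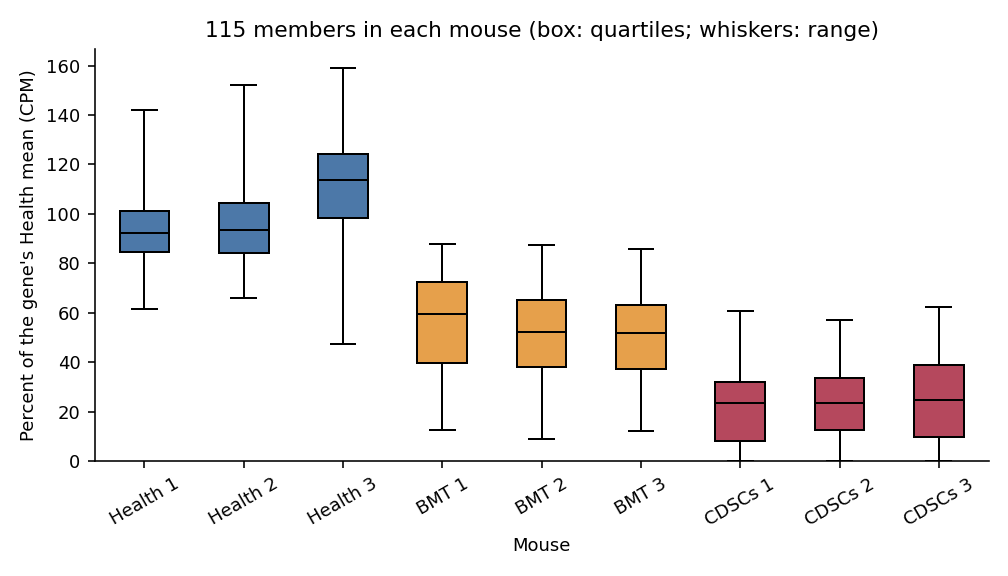
Each box gives the quartiles, the line the median and the whiskers the range of 115 members in 1 mouse, as a percent of the member's mean CPM in Health. Medians are 92.3% to 114% in Health, 51.7% to 59.4% in BMT and 23.6% to 24.5% in CDSCs.

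An order of this kind was uncommon. All 3 groups stood apart in falling order in 1.52% of the 11808 rows, and in rising order in 2%. For the members the order is given by the choice. The gap between the lowest Health and the highest BMT mouse had a median of 1.24-fold over the members, and that between the lowest BMT and the highest CDSCs mouse a median of 1.34-fold. Both gaps reached 1.2-fold in 41 members, while 49 had at least 1 gap under 1.1-fold. In edgeR's quasi-likelihood test over 12572 rows, 111 members passed the filter on low counts, and Gm7426, Gm18068, Gm15550 and C030034L19Rik did not. CDSCs were lower than Health in 110 of the 111 (all but Gm13666) where 8.28% of rows tested were, BMT lower than Health in 31 where 1.45% were, and CDSCs lower than BMT in 24 where 0.7% were. Lrp2, Tmem150c, Lilra6, Xkr5, Mvb12a and Rbm7 were called in all 3. The calls in both comparisons with BMT moved with single mice. Those of CDSCs against BMT went from 24 to 1 without BMT mouse 1, 6 without BMT mouse 2, 8 without CDSCs mouse 2 and 47 without CDSCs mouse 3, while the share of all rows called lower was 0.0152%, 0.129%, 0.191% and 2.01% in turn. They were 1 with only the 6 mice compared (0.0415% of all rows), 4 with the replicate number as a block (0.143%), 51 by DESeq2 (2.25%) and 68 without the filter on low counts (2.34%). Those of BMT against Health went from 31 to 9, 5 and 11 without BMT mouse 1, 2 and 3, and to 13, 21 and 20 without Health mouse 1, 2 and 3, with 0.334% to 0.991% of all rows called lower. They were 55 with only the 6 mice compared (3.71% of all rows), 47 by DESeq2 (2.34%) and 53 without the filter on low counts (1.62%). Each of the 6 named was read under 11 alternatives in each comparison. For CDSCs against BMT, Lilra6 was called in all 11, Tmem150c in 9, Xkr5 in 8, Lrp2 and Mvb12a in 6 and Rbm7 in 4. For BMT against Health, Tmem150c was called in all 11, Lilra6 and Rbm7 in 10, Lrp2 and Xkr5 in 8 and Mvb12a in 3. For CDSCs against Health, all 6 were called in all 11. By edgeR and by DESeq2 no member had a log2 fold change above 0 in any of the 3 comparisons. Of rows tested by edgeR, 48.6% had one in CDSCs against Health, 48.3% in BMT against Health and 51.4% in CDSCs against BMT. Shares called higher were 8.69%, 0.994% and 0.326% in turn. These calls use the contrasts that chose the members and add no support to them. The first 2 of these comparisons share the Health mice, and the last 2 the BMT mice.

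**Figure D2:**
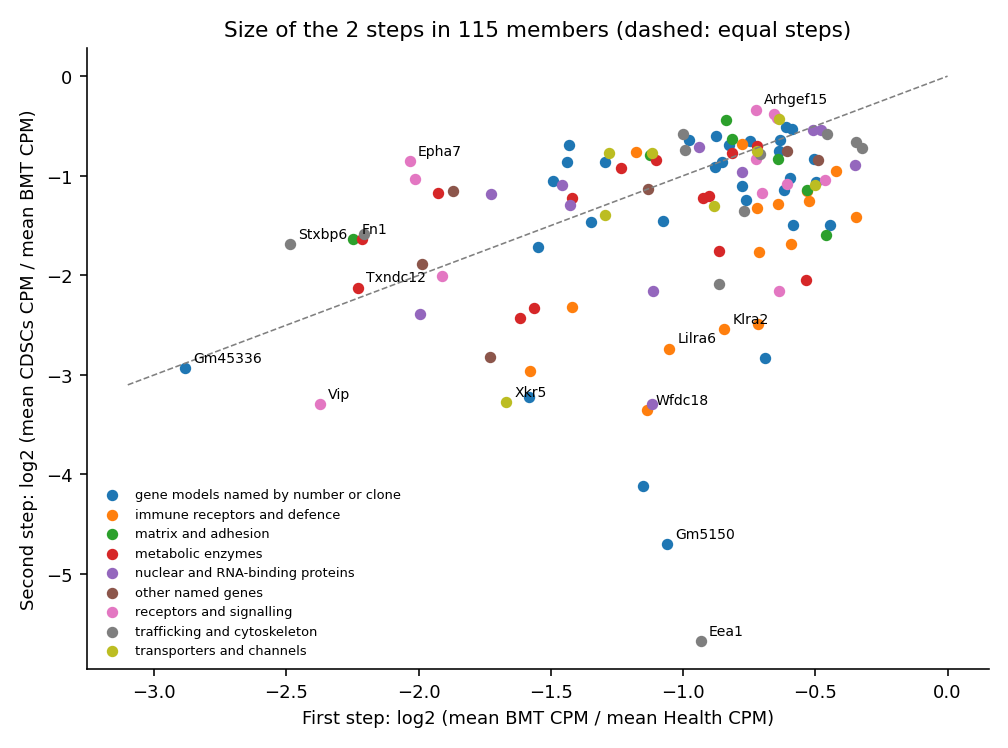
Each point is a member, coloured by the kind of gene its name denotes, with the log2 ratio of BMT to Health means across and that of CDSCs to BMT means up. Points under the dashed line (73 of 115) have the larger fall at the second step, Eea1 and Gm5150 the most, and points above it (42) at the first, with Stxbp6 and Epha7 among them.

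Names of immune receptors and defence proteins made up 16 members, with CDSCs at 4.30% to 38.7% of Health (median 22.4%). Lilra6, a leukocyte receptor of the immunoglobulin-like family on myeloid cells, held 79.8, 93.5 and 106 CPM in the Health mice, 51.4, 39.5 and 43.8 in the BMT mice and 6.88, 5.47 and 7.89 in the CDSCs mice. The 3 groups stood far apart, and the CDSCs mice were close to each other. Mean levels were 93.2 ± 13.3, 44.9 ± 5.99 and 6.75 ± 1.22 CPM (SD, n = 3), so that BMT stood at 48.2% of Health and CDSCs at 15% of BMT. Klra2, a lectin-like receptor of the Ly49 family, had 47.2, 42.7 and 59.7 CPM in Health, 36.2, 21.4 and 25.7 in BMT and 3.44, 7.01 and 3.89 in CDSCs. Here too the second step was the larger, from 55.7% of Health in BMT to 9.59% in CDSCs. Pira2, an activating receptor related to Lilra6, fell less, with 33.3, 36 and 52.6 CPM in Health, 32.3, 29.7 and 22.3 in BMT and 9.63, 12.4 and 15.9 in CDSCs. Its highest BMT mouse was close under its lowest Health mouse.

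Icosl, the ligand of the T-cell costimulator ICOS, read 186, 192 and 281 CPM in Health, 177, 115 and 130.0 in BMT and 57.9, 70.4 and 44.5 in CDSCs. Bst2 (tetherin), a membrane protein that holds budding virus at the cell surface, had 118, 122 and 173 CPM in Health, 99.4, 73.8 and 77.1 in BMT and 42.6, 29.5 and 27.6 in CDSCs. In both rows Health mouse 3 was the highest of all mice and BMT mouse 1 the highest of the recipients. C4b, a complement component, held 387, 752 and 363 CPM in the Health mice, 261, 357 and 259 in the BMT mice and 152, 142 and 252 in the CDSCs mice. A single Health mouse carried the high Health mean of 501 ± 218 CPM, and the highest BMT mouse came within a few CPM of the lowest Health mouse. Olr1, a scavenger receptor for oxidised lipoprotein, had 317, 316 and 391 CPM in Health, 168, 136 and 147 in BMT and 92.1, 113 and 61.9 in CDSCs, with its larger step from Health to BMT (44.1%). Epx, the peroxidase of eosinophil granules, read 204, 243 and 271 CPM in Health, 185, 188 and 163 in BMT and 76.4, 80.3 and 121 in CDSCs. It was among the smaller falls, at 74.6% of Health in BMT and 38.7% in CDSCs.

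At lower levels, Nlrp1b, an inflammasome sensor, had 10.6, 10.3 and 14.4 CPM in Health, 7.25, 7.75 and 8.40 in BMT and 2.46, 2.06 and 2.75 in CDSCs, and its CDSCs mice were at 20.6% of Health on average. Apobec1, an RNA-editing cytidine deaminase, went from 23.4 ± 3.83 CPM in Health to 14.3 ± 1.31 in BMT and 4.19 ± 1.69 in CDSCs. Tap1, the peptide transporter that loads MHC class I, had 4.14, 6.13 and 4.39 CPM in Health, 1.45, 2.34 and 1.11 in BMT and 0, 0.516 and 0.114 in CDSCs, with 1 CDSCs mouse at 0. Wfdc17 and Wfdc18, small secreted proteins of the whey acidic protein family whose genes lie side by side, stood at 10.8% and 4.45% of Health in CDSCs. Few counts lay behind the CDSCs values of Wfdc18, 6 over the 3 mice against 137 in Health, which gives a ratio of 4.35% with an exact 95% interval of 1.57% to 9.70% for counting error. Sh2d1a, Il36b and Cmpk2 completed the group, at 29.1%, 29.4% and 7.48% of Health in CDSCs.

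Transporters and channels gave 8 members. Atp4a encodes the catalytic subunit of the gastric proton pump, a gene known from the stomach, and its row held 1052, 1088 and 1512 CPM in the Health mice, 794, 842 and 582 in the BMT mice and 339, 475 and 506 in the CDSCs mice. All 3 groups were apart, at 1218 ± 256, 739.6 ± 138 and 439.6 ± 88.9 CPM. Ank, a pyrophosphate and nucleotide exporter, had 458, 506 and 289.8 CPM in Health, 154, 165 and 198 in BMT and 134, 91 and 77.4 in CDSCs, and BMT stood at 41.2% of Health. Lrp2 (megalin), a large endocytic receptor, read 72.3, 64.1 and 72.8 CPM in Health, 36.6, 27.5 and 21.3 in BMT and 7.66, 13.5 and 11.2 in CDSCs. Its Health mice differed little, with a coefficient of variation of 7.00%, and both steps were near equal on the log2 scale (-1.29 and -1.40). Xkr5, of the XK family of membrane proteins, had 5.71, 5.04 and 5.68 CPM in Health, 2.12, 1.43 and 1.62 in BMT and 0.0982, 0.206 and 0.229 in CDSCs, a mean in CDSCs of 3.25% of Health. Atp8b2, Cacna2d1, Slc19a2 and Nipal1 lay between 22% and 47.8% of Health in CDSCs.

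**Figure D3:**
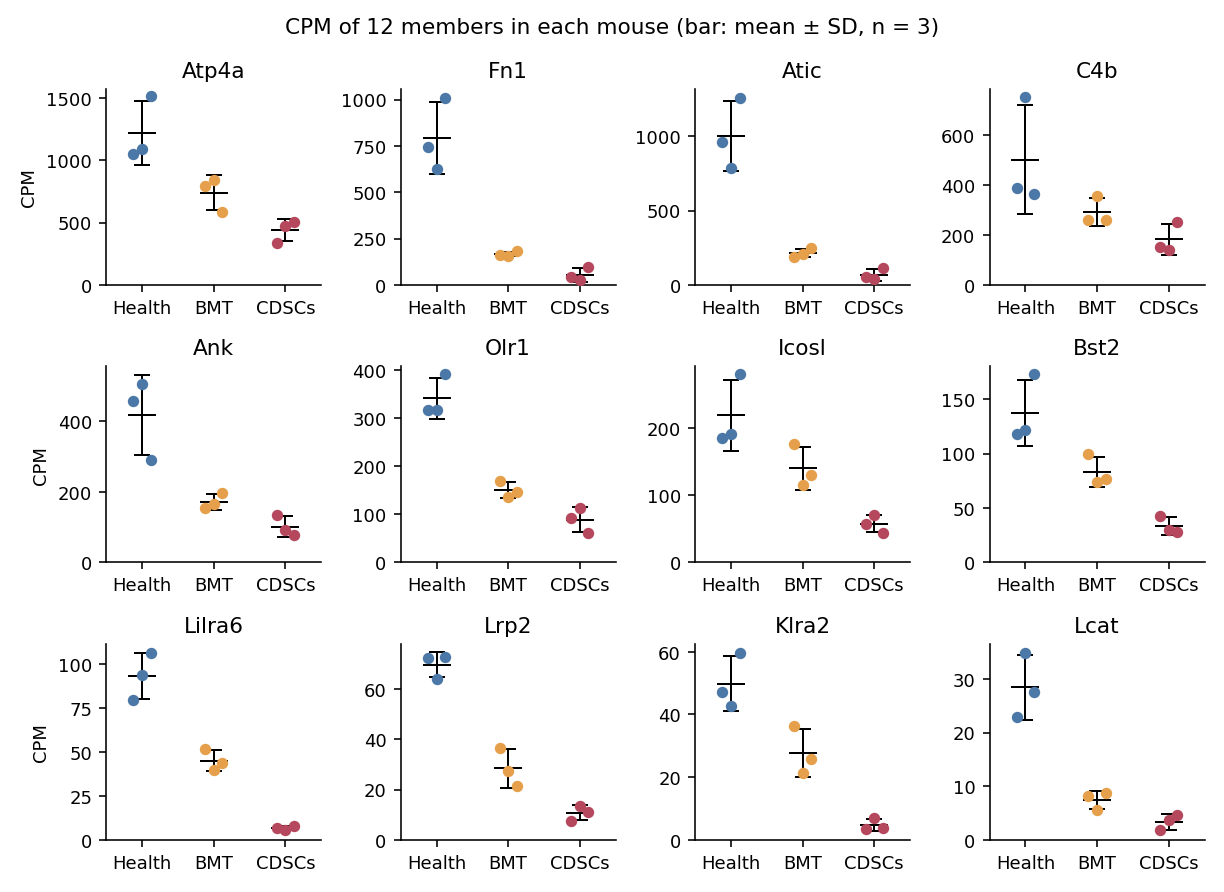
CPM of 12 members in each of 9 mice, on axes that start at 0, with the mean and SD of each group (n = 3). In every panel the 3 groups are in falling order without overlap, as the choice requires. Fn1 and Atic drop more at the first step, and Lilra6 and Klra2 at the second.

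Of 7 names of matrix and adhesion proteins, Fn1 (fibronectin, a glycoprotein of the extracellular matrix) fell most. Its row held 742, 626 and 1008 CPM in the Health mice, 160.2, 159 and 181 in the BMT mice and 41.3, 25.2 and 95 in the CDSCs mice. Every recipient was far below every Health mouse, the lowest of which was 3.45-fold above the highest BMT mouse. Adamts7, a secreted metalloprotease, read 358, 366 and 485 CPM in Health, 225, 256 and 207 in BMT and 118, 155 and 171 in CDSCs, a shallower fall to 36.7% of Health. Itga2, the alpha-2 subunit of a collagen-binding integrin, went from 12.4 ± 2.10 CPM in Health to 5.70 ± 1.80 and 3.28 ± 0.107. The clustered protocadherins Pcdhga7 and Pcdhgb5, which share exons at their 3' end, ended at 41.2% and 31.3% of Health, and their reads may be shared. Ctnnd2 and C1ql2 ended at 24% and 36%.

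Metabolic enzymes (14 members) had a median of 16.5% of Health in CDSCs. Atic, which completes purine synthesis, had 962, 788 and 1258 CPM in the Health mice, 191, 209 and 247 in the BMT mice and 55, 38.1 and 115 in the CDSCs mice. It fell to 21.5% of Health in BMT and 6.92% in CDSCs, and the BMT mice were close together. Pafah1b3, a catalytic subunit of an acetylhydrolase of platelet-activating factor, read 121, 115 and 169 CPM in Health, 83.3, 72.7 and 57.2 in BMT and 16, 31.2 and 44.3 in CDSCs. Lcat, which esterifies cholesterol in plasma, went from 28.4 ± 6.02 CPM in Health to 7.48 ± 1.65 in BMT and 3.32 ± 1.43 in CDSCs. Mocs2, of molybdenum cofactor synthesis, had 39.7, 33.2 and 33 CPM in Health, 14.9, 16.9 and 17.5 in BMT and 8.35, 7.63 and 11.6 in CDSCs, with its larger step first. Rsad1 was uneven within groups, from 11.4 to 32.3 CPM in Health, and so was Aldh3b1 in CDSCs, from 0.589 to 2.99 CPM. Pigh, of glycosylphosphatidylinositol anchor synthesis, fell less at first (69.1% of Health in BMT) than at the second step (24.2% of BMT). Txndc12 and Ggt5 had CDSCs means of 4.90% and 6.06% of Health, while Myg1, Padi3, Prdx2, Lpcat3 and Glce lay between 6.75% and 37.3%.

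Names of receptors and signalling proteins (12 members) included Arhgef15, a signalling protein known from endothelium, with 197, 163 and 252 CPM in Health, 134, 124 and 112 in BMT and 100.3, 107 and 85.8 in CDSCs. Its second step was the smallest of any member (79.2% of BMT). Camk2a, a calmodulin-dependent kinase, ended at 47.7% of Health after a like small second step. Met, the receptor of hepatocyte growth factor, read 65, 54.3 and 76.6 CPM in Health, 48.8, 47.3 and 46 in BMT and 26.1, 16.2 and 26.5 in CDSCs. Its BMT mice were close together, under all Health mice. Vangl2, of planar cell polarity, went from 63.4 ± 9.57 to 39 ± 12.3 and 17.3 ± 0.326 CPM. Epha7, an ephrin receptor, had the larger fall at the first step, with 4.81, 4.84 and 4.82 CPM in Health, 0.892, 1.33 and 1.32 in BMT and 0.884, 0.619 and 0.458 in CDSCs, and the lowest BMT and highest CDSCs mouse nearly touched. Pmepa1, an inhibitor of TGF-beta signalling, was spread in BMT, with 23, 19 and 9.61 CPM, and reached 14.4% of Health in CDSCs. Vip, a neuropeptide, had 47 counts over the Health mice, 9 over BMT and 1 over CDSCs. That put CDSCs at 2.11% of Health by summed counts, with an exact 95% interval for counting error of 0.0524% to 12.4%. Paqr5, Nyap1, Ptpn1, Nrn1 and Pskh1 ended between 6.64% and 48.6% of Health.

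Of 11 names of nuclear and RNA-binding proteins, Cic, a transcriptional repressor, had 422, 447 and 612 CPM in the Health mice, 373, 379 and 311 in the BMT mice and 162, 261 and 309 in the CDSCs mice. It was among the shallowest members (49.4% of Health in CDSCs), and its lowest BMT and highest CDSCs mouse were nearly level. Rprd2, which associates with RNA polymerase II, ended at 48.4%. Nsd2, a histone H3 methyltransferase, read 18.2, 23.3 and 28.8 CPM in Health, 8.58, 9.48 and 8.10 in BMT and 2.55, 5.05 and 3.09 in CDSCs, with even steps. Rbm7, of the complex that directs RNA to the nuclear exosome, had 10.4, 10.6 and 9.21 CPM in Health, 1.78, 2.65 and 3.14 in BMT and 0.491, 0.722 and 0.229 in CDSCs, at 25.1% of Health in BMT and 4.78% in CDSCs. Mta3, a subunit of the NuRD chromatin complex, held its level better in BMT (46.1%) than in CDSCs (4.69%). Prkrip1, Fan1, Syncrip, Med23, Meaf6 and Abraxas2 ended between 10.4% and 42.2%.

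Trafficking and cytoskeletal names (11 members) ran from the smallest to the largest fall. Mvb12a, of the ESCRT-I sorting complex, had 163, 186 and 255 CPM in Health, 139, 105 and 111 in BMT and 54.4, 41.8 and 42.6 in CDSCs. Stx12, an endosomal syntaxin, read 81.2, 82.1 and 112 CPM in Health, 78, 80.0 and 61.6 in BMT and 31.9, 47.5 and 53.9 in CDSCs, and its BMT mean was the nearest of any member to that of Health. Eea1, a tether of early endosomes, had the lowest CDSCs mean relative to Health, with 3.92, 3.46 and 3.75 CPM in Health, 1.67, 1.02 and 3.14 in BMT and 0, 0 and 0.114 in CDSCs. A single count was seen over the 3 CDSCs mice, against 105 in Health and 56 in BMT, so the ratio of 0.945% to Health has an exact 95% interval of 0.0237% to 5.38%. Stxbp6, a binder of SNARE proteins, had the larger fall at the first step (17.8% of Health in BMT) and ended at 5.55% of Health. Gfap, the intermediate filament of astrocytes, went from 9.55 ± 0.362 CPM to 5.24 ± 2.00 and 1.23 ± 0.501. Sfi1, Pfdn5, Dennd6b, Nutf2, Krt86 and Coro1c ended between 7.21% and 49.9% of Health.

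The 6 names of other kinds included Tmem150c and Serpinb8. Tmem150c, a membrane protein, had 21.5, 24 and 29.4 CPM in Health, 6.58, 4.99 and 7.29 in BMT and 1.87, 1.75 and 1.49 in CDSCs, with clear gaps at both steps. Serpinb8, an intracellular serine protease inhibitor, read 36.6, 40.4 and 42.5 CPM in Health, 9.92, 11.9 and 10.8 in BMT and 2.65, 6.19 and 5.83 in CDSCs, most of it lost at the first step. Mirt1, a non-coding RNA, fell least (39.8% of Health in CDSCs), and Khdc3, Tmem101 and Mro ended at 38.9%, 20.7% and 4.28%.

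Gene models known by a number or clone name, with Tiaf2 among them, made up 30 members. Gm40477 had 2965, 4926 and 3638 CPM in the Health mice, 2332, 2177 and 1763 in the BMT mice and 721, 878 and 1726 in the CDSCs mice. CDSCs mouse 3 was well above the other CDSCs mice and just under the lowest BMT mouse. Per length, in TPM (counts scaled by gene length and depth), Gm40477 had the highest level of all members, at 7301 TPM in Health, followed by Gm11958 with 2552, Atp4a with 690.2, Gm47179 with 366 and Bst2 with 325 TPM, while Fn1 had 145 TPM. Gm47179 read 293, 283 and 369 CPM in Health, 118, 119.8 and 147 in BMT and 64.6, 43.3 and 104 in CDSCs, and Gm11958 282, 291 and 337 CPM in Health, 225, 190.2 and 121 in BMT and 47.2, 78.5 and 100.2 in CDSCs. Gm45336 had the lowest BMT mean of any member relative to Health (13.6%) and fell as far again, to 1.78% in CDSCs, with log2 steps of -2.88 and -2.93. Gm5150 had 2 counts over the CDSCs mice against 104 in Health and 50 in BMT. Gm49766 and Gm15396 had 2 and 3 counts over the CDSCs mice, against 72 and 82 in Health. In all, 15 members had at most 3 counts in every CDSCs mouse, and none was at 0 in all 3. The remaining gene models ended between 8.74% and 46% of Health.

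Members lay near each other on the chromosomes. Of 111 members placed by name on GENCODE M21 (GRCm38), 28 (25.2%) had another member within 100 kb, whereas 3.01% of other rows with at least 1 CPM had a member that near. The 28 formed 18 pairs, 5 of them overlapping. Distance and likeness were examined after the members were seen. Among pairs with at least 10 counts in every mouse, the ratio of the 2 counts was followed across the 9 mice. In Atic and Fn1, 5888 bases apart on chromosome 1, the highest ratio was 1.26 times the lowest while each row fell more than 10-fold from Health to CDSCs. Bst2 and Mvb12a, 5465 bases apart on chromosome 8, kept their ratio within 1.21 times, and the overlapping Mirt1 and 4833407H14Rik on chromosome 19 within 1.47 times. The median over 8 neighbouring pairs was 1.76 and that over 2211 pairs of members was 3.05, and 7 of the 8 were below the latter. Pira2 and Lilra6 were the exception, at 5.88, since Lilra6 lost far more at the second step. Cic and Pafah1b3, 889 bases apart, drifted by 2.90 times. On chromosome 8, Nutf2, Pskh1, Gm16156 and Lcat lay in a row, with 60220 bases between Nutf2 and Lcat, and ended at 7.21%, 12.1%, 17.1% and 11.7% of Health. Whether neighbouring rows counted parts of 1 transcript or shared reads was not tested, and the 115 members may not be 115 separate observations.

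**Figure D4:**
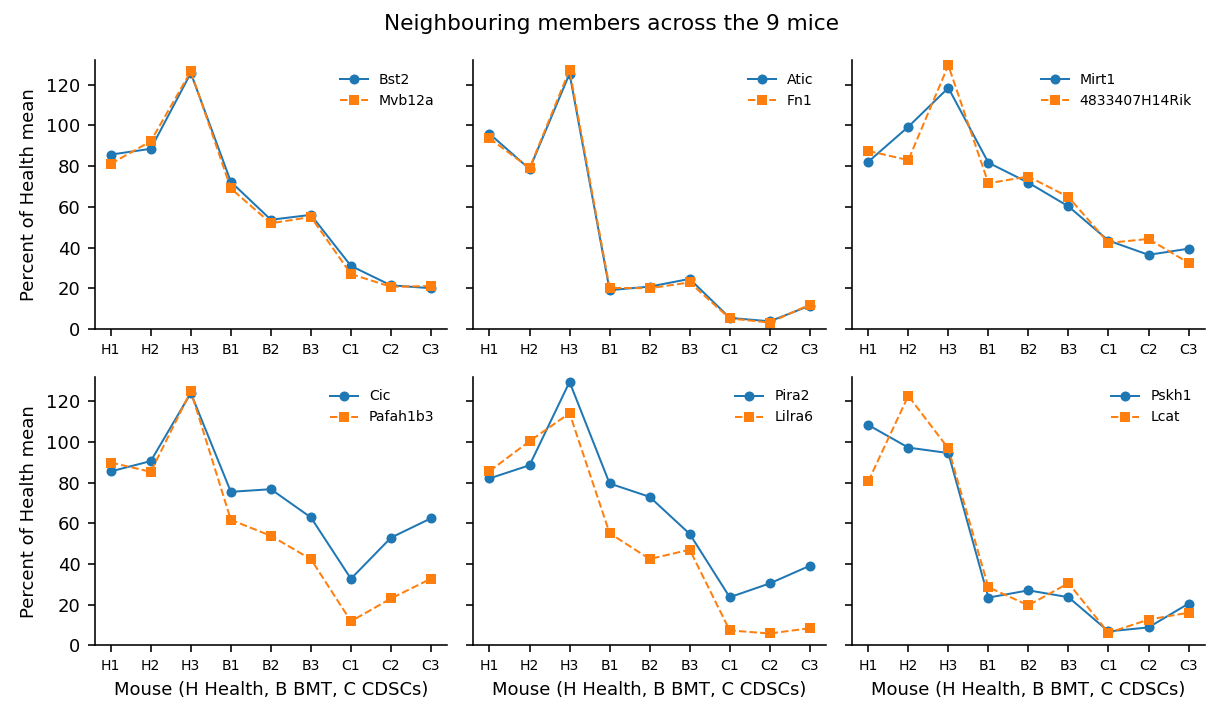
Each panel follows 2 neighbouring members across the 9 mice as a percent of their Health mean (H, B and C with a number stand for Health, BMT and CDSCs mice). Bst2 with Mvb12a and Atic with Fn1 run together in every mouse, with ratios that vary 1.21-fold and 1.26-fold, and Pira2 and Lilra6 part in CDSCs (5.88-fold).

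Rows that were not members but lay within 100 kb of one were lower in CDSCs than in Health in 77 of 356 tested (21.6%), against 7.04% of 11659 rows farther away. In BMT against Health the shares were 3.93% and 1.14%, and in CDSCs against BMT 0.562% and 0.506%. The same limit on sharing of reads applies to these rows, and the shares were not compared by a test.

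Each mouse was also left out of the choice in turn and then read. From the other 8 mice the rule took 137 to 173 rows, and the left-out mouse kept its place relative to every mouse of the neighbouring group in 65.9% (BMT mouse 1) to 81.3% (CDSCs mouse 2) of them. Those rows were already in order in the other 8 mice, so these shares have no background of the same kind and support nothing about the order. Taken over all rows with at least 1 CPM, the left-out mouse held such a place in 4.12% to 5.30% of rows for the BMT mice, 24.4% to 33.8% for Health and 34.2% to 41.3% for CDSCs.

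Lists of marrow cell types and processes held members at about the share of all rows. Of 249 list names with at least 1 CPM in Health, 3 (1.2%) were members, against 0.974% of all such rows, and 14 of 18 lists had none. Beside the counts that follow, 8.28% of all rows tested were lower and 8.69% higher in CDSCs than in Health. Bst2 and Tap1 were the members among 23 interferon-response names tested, of which 6 were lower and 3 higher in CDSCs than in Health, with a median log2 change of -0.15 against -0.02 over all rows. In the same edgeR test 2 were higher in BMT than in Health, where 0.994% of all rows were, and 2 were lower in CDSCs than in BMT, Bst2 and Ifit1, where 0.7% of all rows were. Tap1 was also the member among 10 names of antigen presentation, of which 3 were lower and 2 higher in CDSCs than in Health. Its median log2 change was -0.46 there and -0.44 in BMT against Health, but 0.22 in CDSCs against BMT. Epx was the member among 7 tested names of eosinophils, basophils and mast cells, and the only one lower in CDSCs than in Health. Bst2 also counted as the member of the monocyte, macrophage and dendritic cell list, with 2 of 19 lower and 3 higher. Defining monocyte and macrophage markers summed to 3.13 to 4.71 CPM in Health, 3.16 to 6.68 in BMT and 2.40 to 3.44 in CDSCs. Of these 4 names, 1 was at 0 and 2, that name included, had a mean under 10 counts. Neutrophil markers, with 2 of 6 at 0 and all 6 under a mean of 10 counts, summed to 0.447 to 0.692, 2.01 to 2.43 and 0.516 to 1.14 CPM. These sums rest on few reads, in BMT mostly the 16, 14 and 11 counts of Ltf. Endothelial markers, none of 3 at 0 in all mice but 2 with a mean under 10 counts, summed to 3.02 to 3.86 CPM in Health, 2.93 to 3.26 in BMT and 1.14 to 1.47 in CDSCs. Nearly all of these counts were Pecam1 (mean 24.8), with Cdh5 and Emcn at 0.556 and 0.111. Of 11 names of the wider endothelial list tested, 2 were lower and 1 higher in CDSCs than in Health (median log2 change -0.17). Of 11 marker sums the endothelial was the 1 with every CDSCs mouse below every Health mouse, and 3 had every CDSCs mouse above. Those 3 rested on few names, stroma on Lepr, T and NK cells mostly on Cd3e, and ribosomal proteins mostly on Rps20 and Rpl30. The stroma gap was narrow, 11.03 CPM at most in Health and 11.10 at least in CDSCs. The share of all rows standing apart in this way was not computed. The part of these cell types in the members' fall was not tested.

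By the annotation of their names the members resembled other rows. Gene type and exon length describe the gene so named, which may not be the transcript counted. Of those placed by name, 75.7% were protein coding, against 73.1% of all placed rows with at least 1 CPM. Non-coding members comprised 9 long intergenic RNAs, 5 antisense RNAs and 7 processed pseudogenes among others. Their median exon length was 3838 bases against 3503. They had somewhat fewer counts, with a median Health mean of 10.3 CPM against 14.8, and 20 members reached 100 CPM. Chromosomes 15 and 8 held the largest shares, 1.95% and 1.94% of their rows, and chromosome 16 held none of its 340. On both of the former lie neighbouring members, such as Pfdn5 with Myg1 and Bst2 with Mvb12a, which may not be separate observations.

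The limits of the rule fell among rows of like values. At the limit on CDSCs relative to Health, Dennd6b (49.9%), Cic (49.4%), Paqr5 (48.6%), Sfi1 (48.6%) and Stx12 (48.5%) were the nearest inside, and Pde9a (51.0%), Cfap100 (51.1%), Tent2-ps2 (52.4%), Spata31 (52.5%) and Mapk13 (52.6%) the nearest of 18 rows outside that met all else. At the limit on BMT relative to Health, Stx12 (79.9%), Il36b (78.7%), Dennd6b (78.7%), Prkrip1 (78.5%) and Epx (74.6%) were the nearest inside, and Fbxo17 (81.0%) and St3gal5 (85.3%) were the 2 outside. At the limit on CDSCs relative to BMT, Arhgef15 (79.2%), Paqr5 (76.6%), Camk2a (74.5%), Nipal1 (74.4%) and Pcdhga7 (73.7%) were the nearest inside, and Map7 (80.9%) was the 1 outside. At the floor on Health, C030034L19Rik (1.04 CPM) was inside and Elk3 (0.964 CPM) was the nearest of 7 outside.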

How the data were processed

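Bone marrow RNA was sequenced from 9 mice, 3 in each of Health, BMT and CDSCs, grouped by the sample labels. Per the labels and the study's methods, the authors trimmed reads with Trim Galore, checked them with FastQC and MultiQC, aligned them with HISAT2 to GRCm38 and counted them per gene with featureCounts, without naming the annotation release or the strand setting in the sources used here. The deposited tables hold whole-number counts, with 8741155 to 10181289 counts per mouse, and the TPM that the authors computed from them. Other columns of per-sample values numbered 0.

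CPM were computed from the deposited counts and column sums (Python 3.11.15, pandas 2.3.3, numpy 2.4.6). Calls over all rows came from edgeR 4.0.16 in R 4.3.3, with filterByExpr, TMM, glmQLFit and glmQLFTest on all 9 mice with group as the only factor, two-sided, with Benjamini-Hochberg adjustment over 12572 rows and a threshold of 0.05. Exact 95% intervals of ratios of summed counts (scipy 1.17.1) cover counting error only and do not allow for the choice of the rows by that ratio. Positions and gene types came from GENCODE M21 by name, which matched 111 of 115 members. Alternatives were DESeq2 1.42.0, scaling by library size alone, keeping rows with low counts, the replicate number as a block, a fit of the 6 mice compared, each mouse left out, TMM, DESeq2 or TPM scaling of the rule, and other limits of the rule. The edgeR test, the rule and the scan along chromosomes were tested on simulated data. The scan read 2000 kb around each name in steps of 2 kb, and its list was chosen after the counts had been seen.

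The members and lists were chosen with earlier results of these data known, and names were sorted into kinds after the values had been seen. Members were named if they were among the 15 with the highest Health mean or the 10 with the lowest ratio of CDSCs to Health, near a limit of the rule, in a list, among up to 10 called in all 3 contrasts or in CDSCs against BMT, or among the 6 highest of their kind. Other members of each kind, and the pairs of neighbours, were named outside that rule after their values had been seen. No sequence is shown, since a row's name may not denote the transcript counted.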

Additional observations from a re-analysis of the deposited data

How the results depend on the processing

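With only the 6 mice compared, calls went from 2134 to 1273 for CDSCs against Health, from 307 to 807 for BMT against Health and from 129 to 7 for CDSCs against BMT. Without the filter on low counts BMT against Health had 948 calls and CDSCs against BMT 1260, and DESeq2 gave 617 and 597. Leaving out each mouse gave 1071 to 2640 calls for CDSCs against Health, 102 to 212 for BMT against Health and 2 (without BMT mouse 1) to 491 (without CDSCs mouse 3) for CDSCs against BMT. Of the members, 102 to 111, 5 to 21 and 1 to 47 were then called in these comparisons. Same-numbered mice deviated from their group means with correlations of -0.34 to 0.22, so the numbers were not taken to pair them. With the replicate block the calls were 1507, 197 and 22, of which 109, 22 and 4 were members. Calls for BMT against Health were 125 higher and 182 lower with TMM, and 151 and 141 by library size. The rule took 534 rows from group means alone, 137 to 173 with a mouse left out, and 82 to 141 under the other settings, with 104 of the 115 among 141 under TMM and 92 among 94 by TPM. Median steps moved by less than the spread between mice in all 12 alternatives each, and no result reversed. The cause of these differences was not tested. Counting error weighs most at low counts, and 28 members had at most 3 counts in at least 1 CDSCs mouse, 15 of them in every CDSCs mouse.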
